A study of Mus musculus with 24 samples.

Results

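The genes described here are 10 genes of the endothelial lineage, *Etv2*, *Tal1*, *Sox18*, *Kdr*, *Flt1*, *Tek*, *Tie1*, *Cdh5*, *Pecam1* and *Cldn5*, followed through a time course of mouse optic vesicle (OV) organoids. They were chosen by name, by matching their symbols to the 49705 gene entries of the expression table, and the set was drawn up because *Sox18* and *Tie1* had been seen to be high in day 5 GFP-negative cells. The measured values that selected the set are therefore those of the day 5 GFP-negative libraries, and every comparison with that group is given below as a description with no test. All 10 genes were found once and all 10 were among the 21005 entries with a normalized count of at least 10 in at least 3 libraries.

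The organoids were made from Rx-GFP K/I EB5 mouse embryonic stem cells (mESCs), a single line in which GFP was knocked into the *Rax* locus so that GFP marks cells expressing this eye-field gene. All groups share this genotype and the OV differentiation protocol, in which 4500 dissociated cells were placed in each well on day 0 and Matrigel was added to 2% on day 1. The labels name GMEM with 1.5% KOSR as the medium, whereas the study's methods name a chemically defined medium without growth factors for its first organoids, so the medium of these libraries is not settled here. The 8 groups of 3 replicates were live cells on days 0, 1, 2 and 3, GFP-negative and GFP-positive cells on day 4, and GFP-negative and GFP-positive cells on day 5. Each sample pooled 24 organoids. By the study's methods the day 4 and day 5 samples were sorted into both gates, so the gates of a day share organoids, but no source says that equal replicate numbers mark the same sort. The GFP-negative gate also took in cells with low GFP. Depth was similar across the 24 libraries, at an estimated 36.9 to 54.7 M reads, and 1 read was worth 0.809 to 1.40 normalized counts, so that values below 10 rest on a handful of reads. Rank correlations between replicates were 0.948 to 0.965 for 22 pairs and 0.930 to 0.931 for the 2 pairs with day 0 replicate 1, which stood apart from the other libraries.

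Endothelial cells line blood vessels and, in the embryo, arise from mesoderm that also gives rise to blood. The transcription factor Etv2 acts at the start of this path, Tal1 acts in the shared endothelial and blood progenitors, and Sox18 acts in differentiating vessels. Kdr and Flt1 are receptors for VEGF ligands, Tek is the receptor for angiopoietins and Tie1 its orphan relative, whereas Cdh5, Pecam1 and Cldn5 build the junctions between endothelial cells. Some of these genes are also known outside the vessel: Kdr is made by retinal progenitors, Pecam1 is a surface protein of mESCs, and Tal1 is needed for blood.

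Taken gene by gene, 7 of the 10 had their highest mean in day 5 GFP-negative cells (*Etv2*, *Tal1*, *Sox18*, *Kdr*, *Flt1*, *Tie1* and *Cdh5*), while *Tek* and *Cldn5* were highest on day 1 and *Pecam1* on day 0. The ratio of the highest to the lowest group mean ran from 2.94 for *Etv2* to 108 for *Cldn5*. Endothelial markers outside the set gave a mixed check of its label. Of 6 such markers, 3 (*Erg*, *Fli1* and *Emcn*) had their highest mean in day 5 GFP-negative cells, and the other 3 on day 0 (*Sox7* and *Esam*) or day 1 (*Egfl7*), with a day 0 mean above that of day 5 GFP-negative cells. *Erg*, an endothelial ETS factor, was 15.2, 38.9 and 14.3 normalized counts in the 3 day 5 GFP-negative libraries and at most 7.02 in any other library. *Emcn*, the endothelial sialomucin endomucin, was 8.94, 4.62 and 8.55 there and at most 4.23 elsewhere. Both were low even in day 5 GFP-negative cells. *Erg* passed the filter on low values only through these 3 libraries, and *Emcn* did not pass it. Over the 45 other endothelial transcription factors, receptors and surface genes that passed the filter, 16, *Erg* among them, had their highest mean in day 5 GFP-negative cells. Of the rest 22 were highest on days 0 to 3, and 17 of the 45 had a higher mean on day 0 than in day 5 GFP-negative cells. None of the 12 surface and junction genes among them was highest in day 5 GFP-negative cells. *Mmrn2*, an endothelial matrix protein, had a mean of 1206 among the day 0 libraries against 123 among those of day 5 GFP-negative cells, and *Robo4*, an endothelial guidance receptor, had means of 734 and 30.8. In these bulk samples, fewer cells of a type and less RNA per cell cannot be told apart.

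**Figure D1:**
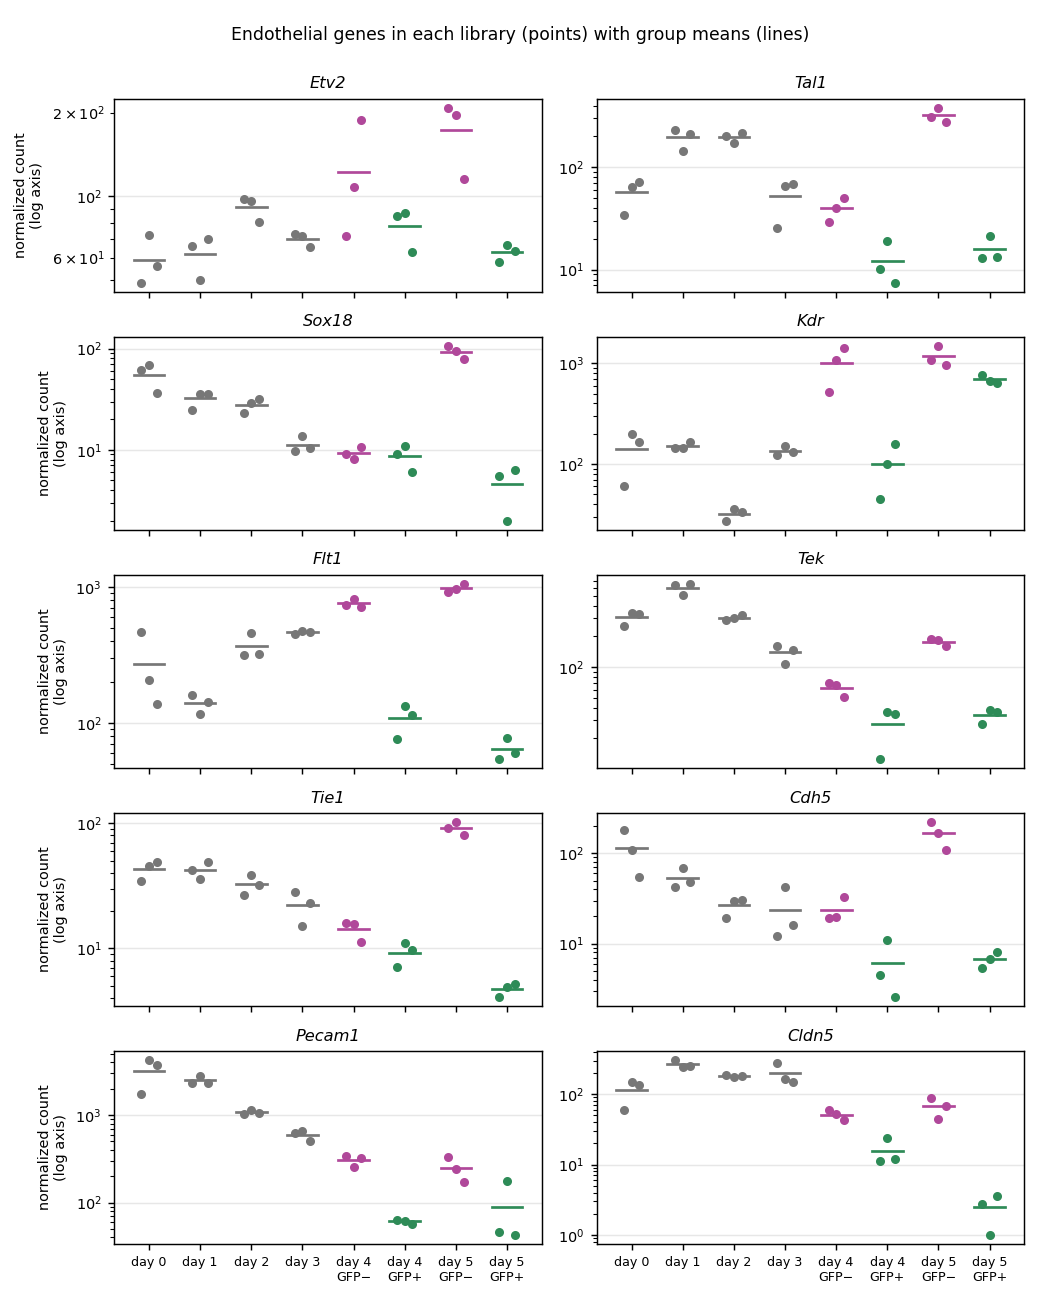
Normalized counts (log axis) of the 10 endothelial genes in the 24 libraries, by group. Points are libraries, lines are group means of 3 replicates, grey marks live cells not sorted on GFP, purple GFP-negative and green GFP-positive cells. For *Sox18* and *Tie1* the day 5 GFP-negative points (79.5 to 106 and 80.8 to 102) lie above all other libraries.

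RefSeq promoter windows (GRCm38.p6, 250 bases before to 50 bases after a start site) matched 7 of the 10 genes by symbol, namely *Etv2*, *Tal1*, *Kdr*, *Flt1*, *Tek*, *Tie1* and *Cldn5*. Windows are printed for *Tal1*, *Tek* and *Tie1*, whose day 5 GFP-negative levels were over 1.5 log2 units above those of day 4 GFP-negative cells, and for *Kdr*, whose levels follow another course. Capitals mark exact matches, on either strand, to 4 motifs of 6 letters that are associated with endothelial and blood regulators: the ETS core AGGAAG, the GATA site AGATAA, the E-box CAGATG and the SOX site AACAAT.
Tal1: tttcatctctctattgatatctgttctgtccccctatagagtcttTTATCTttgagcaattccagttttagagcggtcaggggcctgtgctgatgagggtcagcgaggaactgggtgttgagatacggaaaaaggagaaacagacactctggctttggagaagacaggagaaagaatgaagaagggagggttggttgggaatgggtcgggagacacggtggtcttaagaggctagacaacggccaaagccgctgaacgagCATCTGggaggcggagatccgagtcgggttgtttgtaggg
Tek: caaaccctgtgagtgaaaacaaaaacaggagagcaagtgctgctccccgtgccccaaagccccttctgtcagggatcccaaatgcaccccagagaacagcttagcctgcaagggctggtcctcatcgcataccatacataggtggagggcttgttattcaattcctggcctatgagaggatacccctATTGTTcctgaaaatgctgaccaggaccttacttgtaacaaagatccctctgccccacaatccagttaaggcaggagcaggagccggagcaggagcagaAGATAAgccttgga
Tie1: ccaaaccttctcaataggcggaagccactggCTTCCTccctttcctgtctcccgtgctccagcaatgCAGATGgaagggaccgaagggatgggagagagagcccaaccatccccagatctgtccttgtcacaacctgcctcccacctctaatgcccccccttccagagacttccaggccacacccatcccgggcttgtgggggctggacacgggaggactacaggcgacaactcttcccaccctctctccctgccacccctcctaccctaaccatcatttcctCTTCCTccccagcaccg
Kdr: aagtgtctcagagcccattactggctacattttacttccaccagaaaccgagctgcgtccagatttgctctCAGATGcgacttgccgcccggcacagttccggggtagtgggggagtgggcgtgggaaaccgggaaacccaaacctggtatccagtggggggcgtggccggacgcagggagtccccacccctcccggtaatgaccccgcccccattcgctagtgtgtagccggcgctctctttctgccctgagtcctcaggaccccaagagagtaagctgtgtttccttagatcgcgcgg
The *Tal1* window (chr4:115056176-115056475, plus strand) held 1 GATA site, read as TTATCT on the opposite strand, and 1 E-box, read as CATCTG. In the *Tek* window (chr4:94739039-94739338, plus strand) there was 1 GATA site and 1 SOX site, the latter read as ATTGTT. The *Tie1* window (chr4:118489800-118490099, minus strand), whose start site lies 212 bases inside the annotated gene, held 2 ETS cores read as CTTCCT and 1 E-box, and the *Kdr* window (chr5:75978406-75978705, minus strand) held 1 E-box. Of the windows not printed, those of *Flt1* and *Etv2* held 2 and 1 ETS cores, and those of *Cldn5* and the second *Tal1* start held no match. Among all 32851 windows of this length, 35.4% held the ETS core, 11.2% the GATA site, 17.2% the E-box and 10.7% the SOX site, and the matches are a description of these letters only.

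Of the transcription factors, *Sox18* (ENSMUSG00000046470, chr2:181669836-181671640 in mm10, minus strand, 2 exons) had normalized counts of 106, 94.9 and 79.5 in the day 5 GFP-negative replicates. It had 9.1, 8.1 and 10.6 in day 4 GFP-negative cells, 9.1, 11.0 and 6.0 in day 4 GFP-positive cells and 5.5, 2.0 and 6.3 in day 5 GFP-positive cells. Before sorting on GFP it had 61.3, 68.3 and 36.4 on day 0, 24.9, 35.9 and 35.9 on day 1, 22.9, 28.9 and 31.6 on day 2, and 9.7, 13.6 and 10.4 on day 3. The day 5 GFP-negative range lay above that of every other group, day 0 came next, days 1 and 2 overlapped each other, and from day 3 down to day 5 GFP-positive each group overlapped its neighbour.

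*Tal1* (ENSMUSG00000028717, chr4:115056426-115071755, plus strand) had 309, 379 and 278 normalized counts in day 5 GFP-negative cells against 29.4, 40.3 and 49.7 in day 4 GFP-negative cells. It also had an early plateau, with 233, 145 and 213 on day 1 and 202, 172 and 218 on day 2, between 33.9, 64.6 and 72.3 on day 0 and 25.4, 64.9 and 68.3 on day 3. GFP-positive cells had 10.1, 18.8 and 7.4 on day 4 and 12.8, 21.4 and 13.3 on day 5. Thus day 5 GFP-negative cells stood apart at the top, days 1 and 2 overlapped below them, day 0, day 3 and day 4 GFP-negative cells overlapped in turn, and the GFP-positive groups overlapped at the bottom.

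*Etv2* (ENSMUSG00000006311, chr7:30633616-30635852, minus strand) was the flattest member. It had 208, 197 and 115 normalized counts in day 5 GFP-negative cells and 71.8, 108 and 188 in day 4 GFP-negative cells. Every other library lay between 48.7 and 97.6. All neighbouring groups in the order of its means overlapped, and the spread within both GFP-negative groups (SD 59.4 on day 4 and 50.7 on day 5, n = 3 each) was wider than in the GFP-positive groups (SD 13.3 and 4.50).

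Among the receptors, *Tie1* (ENSMUSG00000033191, chr4:118471191-118490061, minus strand) had 91.7, 102 and 80.8 normalized counts in day 5 GFP-negative cells and 16.0, 15.5 and 11.3 in day 4 GFP-negative cells. GFP-positive cells had 7.1, 11.1 and 9.7 on day 4 and 4.1, 4.9 and 5.2 on day 5. The earlier libraries ran from 34.3, 45.6 and 49.1 on day 0 through 42.2, 36.0 and 49.3 on day 1 and 26.6, 38.5 and 32.3 on day 2 to 28.4, 15.1 and 23.2 on day 3. The ranges of day 5 GFP-negative, day 4 GFP-positive and day 5 GFP-positive cells were each apart from their neighbours, and those from day 0 to day 4 GFP-negative overlapped in turn.

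*Tek* (ENSMUSG00000006386, chr4:94739289-94874976, plus strand) peaked earlier, at 635, 504 and 652 normalized counts on day 1. It had 253, 338 and 332 on day 0, 291, 305 and 321 on day 2, and 163, 107 and 148 on day 3. In GFP-negative cells it had 68.9, 65.9 and 50.6 on day 4 and 189, 184 and 161 on day 5, and in GFP-positive cells 12.6, 36.3 and 34.6 on day 4 and 27.4, 37.7 and 36.3 on day 5. Its day 5 GFP-negative level therefore overlapped that of day 3 and lay below those of days 0, 1 and 2.

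*Flt1* (ENSMUSG00000029648, chr5:147561604-147726011, minus strand) separated the 2 gates on both days. GFP-negative cells had 741, 820 and 715 normalized counts on day 4 and 919, 968 and 1052 on day 5. GFP-positive cells had 76.3, 134 and 115 on day 4 and 54.6, 78.0 and 59.8 on day 5. Day 3 lay between the gates at 448, 474 and 470, and the 9 earlier libraries ran from 117 to 465, where the highest of them was day 0 replicate 1. *Flt1* was the only member whose day 4 and day 5 GFP-negative ranges were both apart from each other and from all other groups.

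*Kdr* (ENSMUSG00000062960, chr5:75932827-75978458, minus strand) was high in 3 of the 4 groups sorted on GFP. It had 519, 1074 and 1401 normalized counts in day 4 GFP-negative cells, 1087, 1481 and 953 in day 5 GFP-negative cells and 772, 668 and 638 in day 5 GFP-positive cells. Day 4 GFP-positive cells had 45.1, 100.2 and 157, day 3 had 123, 150.1 and 131, and the lowest level was on day 2, at 27.3, 36.2 and 33.3. The 3 high groups overlapped one another in turn and were apart from all the others.

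Of the junction genes, *Cdh5* (ENSMUSG00000031871, chr8:104101625-104144511, plus strand), which encodes VE-cadherin, had 222, 170 and 109.6 normalized counts in day 5 GFP-negative cells and 19.2, 19.5 and 32.8 in day 4 GFP-negative cells. GFP-positive cells had 4.5, 11.0 and 2.6 on day 4 and 5.4, 6.8 and 8.1 on day 5. Day 0 cells had 183, 108 and 55.0, which overlapped the day 5 GFP-negative range, and days 1 to 3 ran from 12.2 to 69.7. An antisense gene that overlaps its exons, *Gm29682*, was at most 2.43 in any library.

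*Pecam1* (ENSMUSG00000020717, chr11:106654217-106750628, minus strand) had its highest levels in mESCs, at 1734, 4253 and 3709 normalized counts on day 0. It had 2332, 2799 and 2339 on day 1, 1023, 1157 and 1069 on day 2 and 619, 655 and 499.9 on day 3. GFP-negative cells had 341, 254 and 319.7 on day 4 and 333, 240.3 and 170.4 on day 5, whereas GFP-positive cells had 64.1, 61.7 and 57.6 on day 4 and 46.8, 178 and 42.8 on day 5. The 3 groups from days 1 to 3 were apart from each other and from the groups of days 4 and 5. The GFP-negative groups overlapped, and day 5 GFP-positive replicate 2 reached into the GFP-negative range.

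*Cldn5* (ENSMUSG00000041378, chr16:18776847-18778262, plus strand, a single exon) had 305, 243 and 249 normalized counts on day 1, 190.5, 174 and 183 on day 2 and 283, 163 and 151 on day 3, after 59.9, 149 and 136 on day 0. It had 60.2, 51.5 and 42.6 in day 4 GFP-negative cells and 89.7, 44.6 and 68.8 in day 5 GFP-negative cells. In GFP-positive cells it had 11.4, 23.8 and 12.0 on day 4 and 2.7, 1.0 and 3.6 on day 5. The day 5 GFP-positive level was its lowest and lay apart from day 4 GFP-positive cells, which lay apart from both GFP-negative groups.

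Per kilobase of merged exon, which sets levels of different genes against each other only roughly, the order of the members changed with time. Merged exons cover all annotated transcripts of a gene, 6 for *Flt1* (13.5 kb) and 1 for *Etv2* (1.05 kb). The order between genes therefore depends on this choice of length. On day 0 *Pecam1* led with 519 ± 213 normalized counts per kb (SD, n = 3), followed by *Cldn5* with 81.3 ± 34.1 and *Tek* with 65.3 ± 10.0. In day 5 GFP-negative cells *Etv2* led with 165 ± 48.4, followed by *Kdr* with 130 ± 30.4, *Tal1* with 73.4 ± 11.8, *Flt1* with 72.5 ± 4.98 and *Sox18* with 57.7 ± 8.20, and *Tie1* was lowest with 18.6 ± 2.15. The first 2 of these overlapped within their SDs. In day 5 GFP-positive cells *Kdr*, at 76.7 ± 7.74, and *Etv2*, at 59.8 ± 4.29, had the highest means, followed by *Pecam1* at 14.3 ± 12.4, whose mean was carried by replicate 2 at 28.6 normalized counts per kb.

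Differences between groups were estimated with limma on log2(normalized count + 1), with every library in the same fit and Benjamini-Hochberg adjustment over the 21005 genes of each contrast. A gene was called where its adjusted p was under 0.001 and its absolute log2-fold-change above 1.5, and a log2-fold-change on this scale understates the change of low genes. The study's text calls the replicates biological triplicates of organoid cultures, without saying whether they were started separately, so the p-values measure the spread between these samples, part of which may be technical. Contrasts that have a group in common, such as the 2 comparisons with day 3, also share its libraries.

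Before sorting on GFP, single-day steps moved few members past the thresholds. No member was called between days 0 and 1 by limma, although 5 had an unadjusted p under 0.05, and 0.738% of all genes were called in either direction. *Tal1* came closest, with a difference of 1.81 ± 0.37 on the log2 scale (SE, adjusted p = 0.00286, limma). From day 1 to day 2 *Kdr* fell by 2.20 ± 0.41 on the log2 scale (SE, adjusted p = 0.000676, limma), where 0.528% of all genes were called lower. That call was lost when any 1 of the 6 libraries was left out, at log2-fold-changes of -2.28 to -2.09 and adjusted p-values of 0.00266 to 0.00531, and also without the filter or the mean-variance trend, at up to 0.00160. From day 2 to day 3 no member was called by limma, 5 had an unadjusted p under 0.05, and 1.00% of all genes were called in either direction. Just outside the thresholds were *Tal1*, with -2.00 ± 0.37 and an adjusted p of 0.00103, and *Kdr*, with 2.03 ± 0.41 and an adjusted p of 0.00195 (limma), and both passed when day 0 replicate 1, which bears on this contrast only through the shared spread, was left out of the fit (adjusted p = 0.000268 and 0.000172, limma). Over the 3 days together, a contrast added after the members' values had been seen, *Pecam1* (-2.36 ± 0.38, adjusted p = 3.62e-05), *Cdh5* (-2.28 ± 0.48, 0.000582) and *Sox18* (-2.17 ± 0.34, 2.07e-05) fell, where 6.12% of all genes were called lower by limma. The *Cdh5* call was lost without day 0 replicate 1 (-1.87), day 0 replicate 2 (-2.24), day 3 replicate 1 (-1.93) or day 3 replicate 3 (-2.12), and without the filter on low values (adjusted p = 0.00117, limma), and all 3 were lost when only these 2 groups were fitted. In the same contrast 6 of 8 pluripotency markers were called lower by limma. Day 0 replicate 1, which had the highest *Cdh5* of day 0 (183 normalized counts), alone had 5105 normalized counts of *Acta2* and 4342 of *Tagln*, smooth muscle genes of the mural list, where the other 2 had 92.4 and 74.6 of *Acta2* and 189.9 and 189 of *Tagln*. The part of these markers in the falls was not tested.

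Each gate on day 4 was compared with day 3, and *Cldn5* was the only member called in both comparisons, lower in each. In GFP-negative cells *Kdr* rose from 135 ± 14.1 to 998 ± 446 normalized counts (SD, n = 3), which is 2.77 ± 0.41 on the log2 scale (SE, adjusted p = 4.49e-05, limma), where 2.00% of all genes were called higher. *Cldn5* fell there from 199 ± 72.8 to 51.4 ± 8.81, which is -1.89 ± 0.37 on the log2 scale (adjusted p = 0.000939, limma), where 0.871% were called lower. The *Cldn5* call was lost without any 1 of the 6 libraries, at log2-fold-changes of -2.06 to -1.60 and adjusted p-values of 0.00186 to 0.00917, and the *Kdr* call only when these 2 groups were fitted alone (adjusted p = 0.00169, limma). *Sox18*, *Tie1* and *Tal1*, which were high a day later, had log2-fold-changes of -0.25, -0.58 and -0.31 over this step, none of them called.

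In GFP-positive cells 5 of the 10 members were called lower than on day 3, where 7.36% of all genes were. *Cldn5* fell by 3.59 on the log2 scale (SE 0.37, adjusted p = 9.93e-08), *Pecam1* by 3.24 (SE 0.38, 6.43e-07), *Tek* by 2.40 (SE 0.28, 5.97e-07), *Flt1* by 2.12 (SE 0.29, 5.62e-06) and *Tal1* by 2.01 (SE 0.37, 0.000189; all limma). No member was called higher, where 3.33% of all genes were. The median of the 10 members was -1.90 and that of all genes -0.01. The *Tal1* call was lost without day 3 replicate 2 (-1.80), day 3 replicate 3 (-1.76), day 4 GFP-positive replicate 1 (-1.93) or day 4 GFP-positive replicate 3 (-1.73), and the *Tal1* and *Tek* calls when these 2 groups were fitted alone (adjusted p = 0.0115 and 0.00236, limma).

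The 2 gates were then compared on day 4, which asks how these genes were divided between cells with lower and higher signal of the *Rax* reporter. *Kdr* was higher in GFP-negative cells by 3.35 ± 0.41 on the log2 scale (SE, adjusted p = 3.37e-06), *Flt1* by 2.83 ± 0.29 (4.30e-07) and *Pecam1* by 2.29 ± 0.38 (0.000156; all limma), so that 3 of the 10 members were called where 3.63% of all genes were called higher. No member was called lower, where 0.328% of all genes were. *Cdh5*, *Cldn5*, *Tal1* and *Tek* differed by 1.96, 1.71, 1.70 and 1.25 with adjusted p-values of 0.00621, 0.00232, 0.00259 and 0.00315 (limma), which did not pass. *Sox18* differed by 0.11 ± 0.34 and *Tie1* by 0.57 ± 0.27, so the 2 genes that gave rise to the set were not called between the gates on day 4. The *Pecam1* call was lost without day 4 GFP-negative replicate 1 (2.20), day 4 GFP-negative replicate 3 (2.25) or day 4 GFP-positive replicate 3 (2.25), *Tal1* was called without day 4 GFP-positive replicate 2 (2.04), and the *Kdr* call was lost when only these groups were fitted (adjusted p = 0.00502, limma). With day 0 replicate 1 left out of the fit, *Cldn5* and *Tal1* were called as well (adjusted p = 0.000507 and 0.000952, limma).

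From day 4 to day 5 in GFP-positive cells, *Kdr* and *Cldn5* went opposite ways. *Kdr* rose from 101 ± 56.1 to 693 ± 69.9 normalized counts (SD, n = 3), which is 2.93 ± 0.41 on the log2 scale (SE, adjusted p = 4.23e-05, limma), where 0.595% of all genes were called higher. *Cldn5* fell from 15.7 ± 6.98 to 2.45 ± 1.33, which is -2.29 ± 0.37 on the log2 scale (adjusted p = 0.000245, limma), where 0.890% were called lower. Its call was lost without day 4 GFP-positive replicate 2 (-1.97) or day 5 GFP-positive replicate 2 (-1.93), with a pseudocount of 5 and with quantile normalization. When only these 2 groups were fitted neither call was made (adjusted p = 0.0120 for *Kdr* and 0.0240 for *Cldn5*, limma). *Sox18* and *Tie1* had log2-fold-changes of -0.86 ± 0.34 and -0.82 ± 0.27 over the same step and were not called.

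The day 5 GFP-negative values, which gave rise to the set, are described without a test. Against day 4 GFP-negative cells the difference was 3.20 on the log2 scale for *Sox18*, 3.00 for *Tal1*, 2.74 for *Cdh5*, 2.61 for *Tie1* and 1.52 for *Tek*. These 5 differed by more than 1.5, a limit on size alone with no p-value, as did 2.51% of all genes in this direction. The other members differed by 0.56 (*Etv2*), 0.37 (*Flt1*), 0.35 (*Cldn5*), 0.32 (*Kdr*) and -0.34 (*Pecam1*). All 3 replicates were above all 3 of day 4 for 6 of 10 members and 18.3% of all genes. When each of the 6 libraries was left out in turn, the difference of *Tek* ran from 1.38 to 1.60 and that of *Cdh5* from 2.51 to 3.02. Nothing is read from these counts about the set, because its choice used these libraries.

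Against day 5 GFP-positive cells, likewise without a test, the difference was 4.38 for *Cdh5*, 4.34 for *Cldn5*, 4.28 for *Tal1*, 4.17 for *Sox18*, 4.01 for *Tie1*, 3.93 for *Flt1* and 2.37 for *Tek*. *Pecam1*, *Etv2* and *Kdr* differed by 1.74, 1.41 and 0.74. Thus 8 members differed by more than 1.5, as did 8.19% of all genes in this direction, and *Pecam1* ran from 1.38 to 2.39 when 1 library was left out. The replicates of the 2 gates did not overlap for 9 of 10 members, *Pecam1* being the exception, and for 20.8% of all genes in this direction. *Cldn5* had 2.45 ± 1.33 normalized counts in day 5 GFP-positive cells (SD, n = 3), and its ranges in the 2 GFP-negative groups overlapped.

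**Figure D2:**
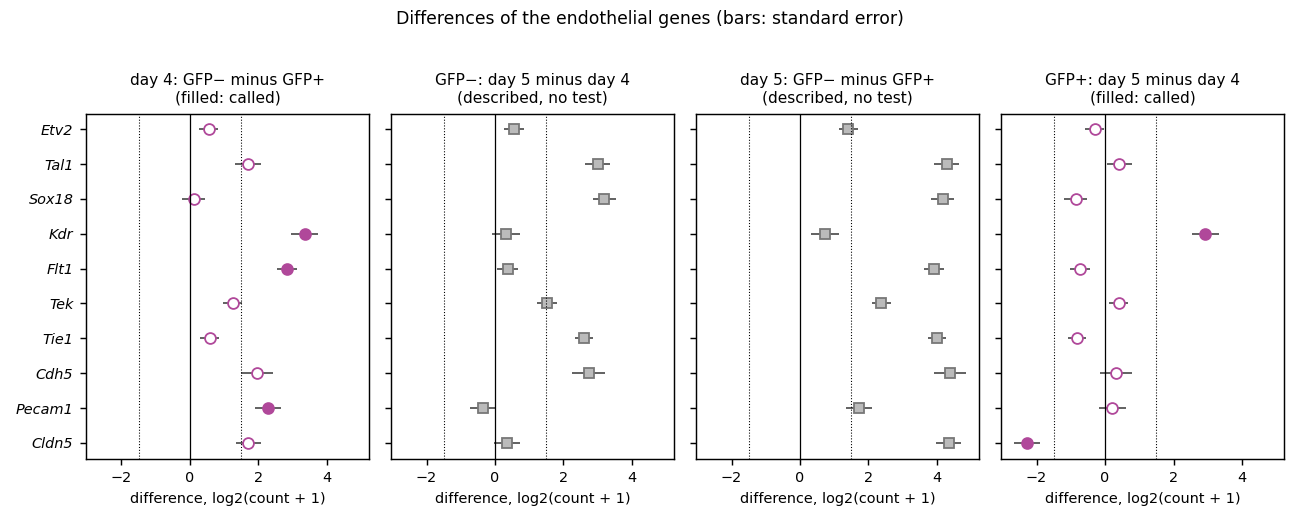
Log2 differences of the 10 endothelial genes in 4 comparisons on the log2(normalized count + 1) scale, with standard errors; dotted lines mark 1.5 and -1.5. Circles are the 2 tested comparisons, filled where a gene was called, and grey squares the 2 described comparisons with day 5 GFP-negative cells, which carry no test. *Kdr*, *Flt1* and *Pecam1* are filled between the gates on day 4.

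Over the 24 libraries, the likeness of the members' courses was given as Pearson correlations of log2(normalized count + 1). *Sox18* and *Tie1* had r = 0.92, *Sox18* and *Cdh5* 0.91, and *Tie1* and *Cdh5* 0.85. *Tek* and *Pecam1* had r = 0.90, *Tek* and *Cldn5* 0.84 and *Pecam1* and *Cldn5* 0.81. Some other pairs were near these values, with *Tal1* and *Tie1* at 0.85, *Tek* and *Tie1* at 0.81 and *Tal1* and *Tek* at 0.80. The remaining pairs of *Sox18*, *Tie1* or *Cdh5* with *Tek*, *Pecam1* or *Cldn5* were lower. They ran from 0.56 (*Sox18* and *Pecam1*) to 0.74 (*Tie1* and *Cldn5*). A division of the members into groups was not tested. *Kdr* had no correlation above 0.46 with another member and its lowest was -0.41, with *Cldn5*. Replicates of a group share a day and a gate, so these values describe courses over 8 groups and carry no test. They include the 3 day 5 GFP-negative libraries, in which *Sox18* and *Tie1* were picked for being high, so the likeness of members to each other and to other genes draws in part on the values that gave rise to the set.

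**Figure D3:**
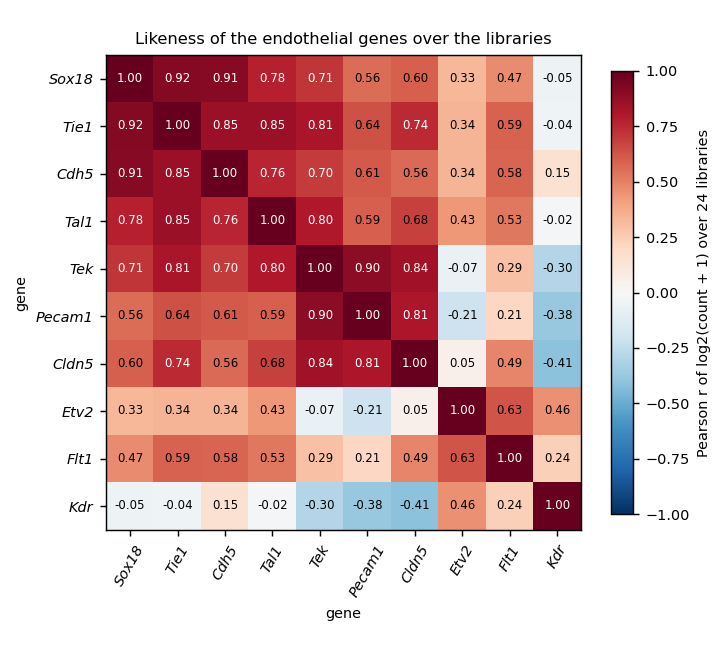
Pearson correlation of log2(normalized count + 1) between the 10 endothelial genes over 24 libraries; red is positive and blue negative. *Sox18*, *Tie1* and *Cdh5* correlate at 0.85 to 0.92, whereas *Kdr* lies between -0.41 and 0.46 with all others.

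Among all 21005 genes, those most like *Sox18* over the 24 libraries were *Tie1* (r = 0.919), *Cdh5* (0.911) and *Mical2* (0.897). Those most like *Tie1* were *Sox18*, *Mical2* (0.917) and *Spns2* (0.883), and those most like *Cdh5* were *Lamc1* (0.925), *Tinagl1* (0.923) and *Mical2* (0.920). The nearest gene to *Flt1* was *Ets1* (0.929), an ETS factor, followed by *Sez6l* (0.925) and *Tmprss2* (0.916). For *Pecam1* they were *Sfn* (0.981), *Aldh3a1* (0.980) and *Dmtn* (0.980), and for *Tek* *Gm53* (0.957), *Ccdc3* (0.955) and *Grm6* (0.955). For *Cldn5* they were *Gstm3* (0.968), *Dpys* (0.968) and *Cdh1* (0.964), and for *Tal1* *Ptch1* (0.915), *Tnni1* (0.903) and *Grap2* (0.859). *Kdr* was nearest to *St6galnac4* (0.909), *Prdm6* (0.897) and *Samd5* (0.890), and *Etv2* to *Ctse* (0.854), *Rubie* (0.851) and *Fjx1* (0.823).

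Other genes of the pathway were followed in 4 lists. On day 4, 6 of 19 other endothelial transcription factors were called higher in GFP-negative than in GFP-positive cells and 1, *Nr2f2*, lower, where 3.63% of all genes were called higher and 0.328% lower. The largest differences were those of *Foxc1* (295 ± 75.6 against 17.4 ± 8.25 normalized counts, SD, n = 3), *Sox17* (510 ± 119 against 33.3 ± 12.4), *Klf2* (725 ± 120 against 72.1 ± 34.3), a flow-responsive factor, and *Ets1* (740 ± 117 against 72.7 ± 7.22), with log2-fold-changes of 4.10, 3.95, 3.40 and 3.32 and adjusted p-values of 2.23e-06, 1.09e-06, 7.86e-09 and 2.41e-11 (limma). *Sox17* also marks endoderm and is counted in that list too, and *Foxc1* is also active in other mesoderm. *Klf2* had its highest mean on day 0, at 7511 normalized counts, against 462 in day 5 GFP-negative cells. Of 14 other receptors 3 were called higher, *Aplnr*, the apelin receptor (log2-fold-change 3.62, adjusted p = 5.72e-05), *Eng*, a TGF-beta coreceptor (1.78, 0.000209), and *Nrp1*, a VEGF coreceptor (1.66, 0.000193; all limma). *Eng* had its highest mean on day 0 too, at 2203 normalized counts against 271 in day 5 GFP-negative cells. Of 12 tested surface and junction genes *Mmrn2* was called higher (2.45, adjusted p = 1.55e-05, limma). Of 11 vascular ligands *Apela* was called higher (3.27, adjusted p = 5.40e-06) and *Efnb2* lower (-1.99, 7.86e-09; limma) in GFP-negative cells. The medians of the 4 lists were 1.48, 0.67, 0.31 and 0.14 on the log2 scale, against -0.01 over all genes.

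In day 5 GFP-negative cells, again without a test, *Fli1*, an ETS factor of vessels and blood, had 146, 146 and 104 normalized counts against 9.7, 13.3 and 30.5 on day 4, and the day 5 replicates lay above all those of day 4. *Erg*, counted in what follows, passed the filter on low values only through the day 5 GFP-negative libraries. *Erg*, *Fli1*, *Nr2f2* and *Lyl1*, a relative of Tal1, had the largest differences among the 8 of 19 other transcription factors that were over 1.5 log2 units higher than in day 4 GFP-negative cells (3.85, 2.96, 2.11 and 1.86), where 2.51% of all genes were. Of 14 other receptors 2 were, namely *Calcrl*, a receptor for adrenomedullin, at 298 ± 47.3 against 86.0 ± 29.4 normalized counts (SD, n = 3), and *S1pr1*, a receptor for sphingosine-1-phosphate, at 197 ± 9.41 against 56.0 ± 11.4. None of the 12 surface and junction genes (median 0.29) or the 11 vascular ligands (median 0.33) differed by that much. Of the genes just named, *Nr2f2* was higher still in day 5 GFP-positive cells, at 3883 ± 430.2 against 2078 ± 268 normalized counts in GFP-negative cells, *Calcrl* was at 255 ± 64.7 there and *S1pr1* at 134 ± 14.7, the *Calcrl* ranges of the 2 gates overlapping. Against day 5 GFP-positive cells, where 8.19% of all genes differed by that much, 14 of 19 transcription factors did, as did 5 of 14 receptors, led by *Aplnr* (4.40) and *Ptprb* (3.99), and 3 of 12 surface genes, led by *Mmrn2* (3.42) and *Esam* (3.06). Of 11 ligands 3 were higher, led by *Apela* (4.07), and 1, *Efnb2*, lower (-1.54).

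Markers of other cell types moved with the gates. On day 4, 3.63% of all genes were called higher in GFP-negative than in GFP-positive cells and 0.328% lower (limma). Summed over 11 genes, mesoderm markers were at 8558 to 14171 normalized counts in day 4 GFP-negative cells against 800 to 1673 in day 4 GFP-positive cells, and 9 of 11 were called higher between the gates by limma. On day 5 the sums were 7009 to 10039 and 846 to 1159. Of 9 endoderm markers 6 were called higher in GFP-negative cells on day 4, with sums of 3097 to 4734 against 165 to 475, and on day 5 the sums were 4509 to 6311 against 243 to 394. All 8 pluripotency markers were called higher in GFP-negative than in GFP-positive cells on day 4. From day 3 to day 4 GFP-positive cells all 8 were called lower, where 7.36% of all genes were. *Pecam1*, *Tek* and *Cldn5* fell in the same step. From day 3 to day 4 GFP-negative cells 0 of the 8 were called higher and 1 lower (all limma). All 5 eye-field markers were called lower in GFP-negative cells on day 4, and *Rax* itself had 946 to 1018 normalized counts in GFP-negative and 9100 to 9967 in GFP-positive cells. None of the 6 mural cell markers was called between the gates on day 4 by limma, and 1 had an unadjusted p under 0.05. That was *Rgs5*, a pericyte marker, at 81.0, 239 and 296 normalized counts in GFP-negative and 4.50, 12.3 and 25.2 in GFP-positive cells (log2 difference 3.86, adjusted p = 0.00102, limma), just outside the thresholds. On day 5 it was at 264, 409 and 102 in GFP-negative and 5.13, 10.8 and 2.87 in GFP-positive cells, and was the 1 of 6 mural markers to differ by more than 1.5 there. Between these gates 8.19% of all genes were higher in GFP-negative cells by that much. From day 4 to day 5 in GFP-negative cells, *Sox18*, *Tal1*, *Cdh5* and *Tie1* differed by 2.61 to 3.20, and 2.51% of all genes were higher by more than 1.5. The 1 of 6 mural markers to be so was *Acta2*, at 49.3, 65.5 and 96.6 normalized counts on day 4 and 391, 387 and 243 on day 5. The GFP-positive libraries of day 5 had 415, 388 and 373 of it. The part of these cell types in the members' differences was not tested.

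Blood markers differed between replicates of the day 5 GFP-negative group. The embryonic globin genes *Hbb-bh1*, *Hba-x* and *Hbb-y* were at 1122, 319 and 43.5 normalized counts in replicate 2 and listed at 0 in replicates 1 and 3. Outside this group, day 4 GFP-negative replicate 3 had 54.3, 7.99 and 2.43 of them. Day 5 GFP-positive replicate 2 had 9.25 of *Hbb-bh1*. The 10 blood markers summed to 1845 in replicate 2, and the lowest sum of the group was 257, close to the 231 to 270 of day 4 GFP-negative cells. Of the 6 blood markers that passed the filter, 1, *Runx1*, a blood stem cell factor, was called between the gates on day 4, at 80.6 ± 5.52 normalized counts in GFP-negative and 14.0 ± 1.61 in GFP-positive cells (SD, n = 3, adjusted p = 1.09e-06, limma), where 3.63% of all genes were called higher. The median of the 6 was 0.96 on the log2 scale. On day 5 the median was 1.76, and 3 of the 6, *Runx1*, *Spi1* and *Gfi1b*, were higher in GFP-negative cells by more than 1.5, where 8.19% of all genes were. Against day 4 GFP-negative cells none was, where 2.51% of all genes were. *Gata1*, an erythroid factor, averaged 36.9 (SD 8.73, n = 3) in the group, against 44.7 (SD 8.03) among the day 5 GFP-positive libraries, and *Ptprc*, the leukocyte antigen CD45, was at most 5.9. Without replicate 2 the differences from day 4 GFP-negative cells were 3.18 for *Sox18*, 2.88 for *Tal1*, 2.70 for *Cdh5*, 2.53 for *Tie1* and 1.49 for *Tek*. The part of blood and mural cells in the members' differences was not tested.

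**Figure D4:**
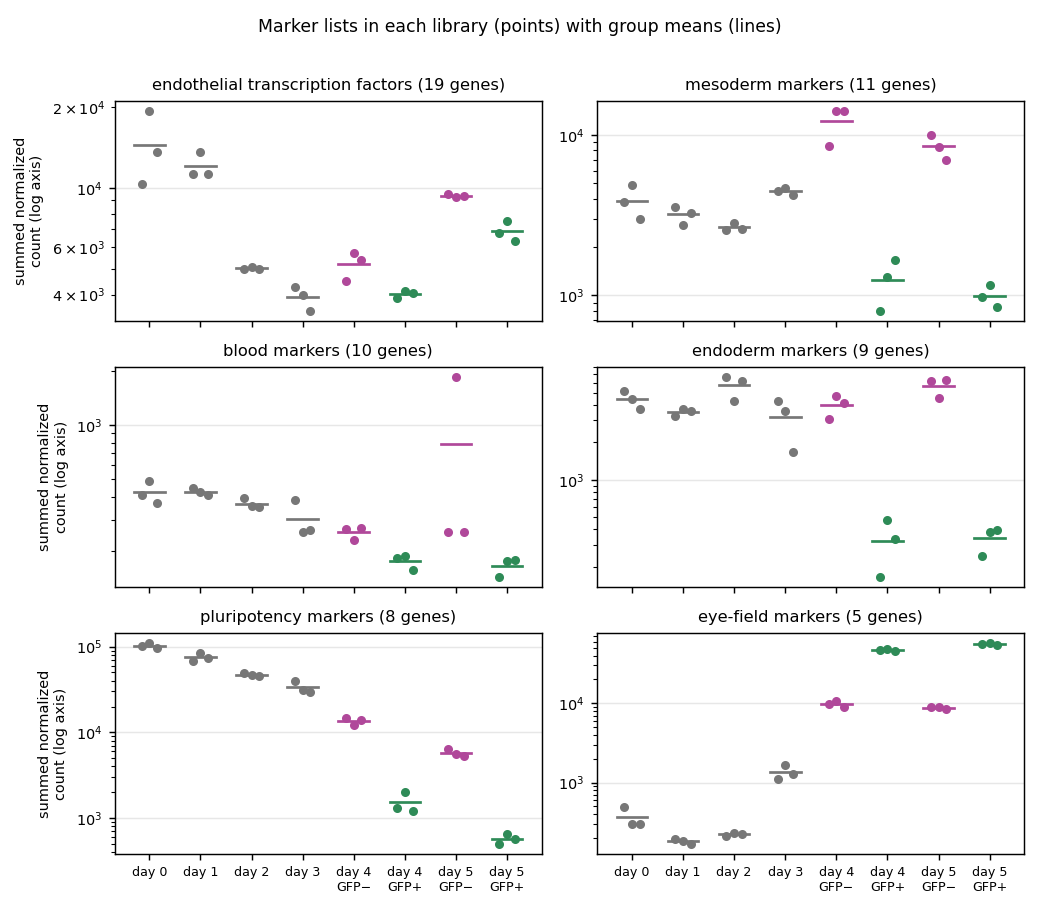
Summed normalized counts (log axis) of 6 marker lists in the 24 libraries, by group; points are libraries and lines group means of 3 replicates. The mesoderm and endoderm sums are higher in GFP-negative than in GFP-positive cells on both days, and the blood sum is 1845 in day 5 GFP-negative replicate 2 and near 257 in the others.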

How the data were processed

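RNA was measured in 24 libraries of OV organoids. The authors pseudo-aligned reads with kallisto 0.43.1 (processing notes) against Ensembl's coding plus non-coding transcripts of mm10 (build 38) and deposited a table of DESeq2-normalized counts, a signal per gene divided by library normalization factors; the DESeq2 version and the strandedness of counting are not given in the sources used here. Columns with the study's own lists of up, down and stable genes were left aside. Between 35.8% and 76.2% of low values were within 0.1 of whole reads, so no count model was run.

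Values were analysed as log2(value + 1) by limma 3.58.1 under R 4.3.3, using eBayes with trend, for the 21005 genes that reached 10 in 3 or more libraries, and 1 mean per group; Benjamini-Hochberg adjustment was made by contrast. For comparisons with day 5 GFP-negative cells, whose values chose the set, the planned call rule was replaced by the size of the log2 difference alone (over 1.5), with no p-value. Figures and tables used Python 3.11.15, pandas 2.3.3 and matplotlib 3.10.9. On simulated data for the day 4 gate contrast, with 21005 genes, 82% of planted log2 changes of 2 and 94% of 3 were recovered, with 0 other calls. Coordinates come from the table and equal GENCODE M21 for all 10 genes. Genes named were the members, up to 4 called genes with the largest difference in each of the 4 pathway lists, and the 3 nearest genes of each member; *Nr2f2* on day 4, the globin genes, *Erg*, *Emcn*, *Robo4*, *Mmrn2* on day 0, *Acta2*, *Tagln*, *Rgs5*, *Runx1*, *Spi1*, *Gfi1b*, *Gata1*, *Ptprc* and *Rax* were named after their values were seen. The members and lists were chosen with earlier results of these data known. Alternatives were other pseudocounts (0.5 and 5), filters, quantile normalization, no trend, fits restricted to the groups compared, replicate blocks, and leaving out single libraries.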

Additional observations from a re-analysis of the deposited data

How the results depend on the processing

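Depth and 3 libraries per group limit the members with few reads, chiefly *Sox18*, *Tie1*, *Cdh5* and *Cldn5* in GFP-positive cells. The causes of the shifts below were not tested, except that leaving out a library also leaves fewer samples. Of the single-member values of the tested contrasts under alternatives, 1115 kept their direction and their side of the thresholds, 44 lost a call, 10 gained one and 21 changed sign, none of the last being a called value.

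Members called from day 1 to day 2 numbered 1, and 0 without the filter or the trend. From day 2 to day 3 they were 0, and 1 with a pseudocount of 5 or a filter of 50 (*Tal1*), 1 with only the groups compared (*Kdr*), and 2 without day 0 replicate 1. From day 3 to day 4 GFP-negative they were 2, and 1 (*Kdr*) with a pseudocount of 0.5, no filter or no trend, and 0 with only the groups compared. From day 3 to day 4 GFP-positive they were 5, and 3 with only the groups compared. Between the day 4 gates they were 3, and 5 without day 0 replicate 1. From day 4 to day 5 GFP-positive they were 2, and 1 (*Kdr*) with a pseudocount of 5 or quantile normalization, and 0 with only the groups compared. Day 5 against day 4 GFP-negative had 5 that differed by more than 1.5, and 4 with a pseudocount of 5 or quantile normalization (without *Tek*). Day 3 against day 0 had 3, and 2 without the filter (*Cdh5* lost), and 0 with only the groups compared.

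Leaving out 1 library at a time gave 0 to 0 members from day 1 to day 2, 1 to 1 from day 3 to day 4 GFP-negative, 4 to 5 from day 3 to day 4 GFP-positive, 2 to 4 between the day 4 gates, 1 to 2 from day 4 to day 5 GFP-positive, 4 to 5 for day 5 against day 4 GFP-negative, 7 to 9 between the day 5 gates and 2 to 3 for day 3 against day 0. Log2 values that changed sign ranged, from day 0 to day 1, from -0.0524 to 0.226 for *Etv2*, -0.264 to 0.591 for *Kdr* and -0.163 to 0.0986 for *Tie1*; from day 1 to day 2, -0.180 to 0.160 for *Tal1*; from day 2 to day 3, -0.853 to 0.0019 for *Cdh5* and -0.216 to 0.236 for *Cldn5*. From day 3 to day 4 GFP-negative *Cdh5* ranged from -0.176 to 0.679, and between the day 4 gates *Sox18* from -0.108 to 0.279. From day 4 to day 5 GFP-positive *Tek* ranged from -0.0800 to 0.650, *Cdh5* from -0.0768 to 0.796 and *Pecam1* from -0.441 to 0.576. From day 0 to day 3 *Tal1* ranged from -0.489 to 0.292 and *Kdr* from -0.431 to 0.424. Quantile normalization turned *Tie1* from day 0 to day 1 to 0.0434 and *Sox18* between the day 4 gates to -0.143.

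With the replicate block, 2 members (*Tal1* and *Kdr*) were called from day 2 to day 3 and 1 (*Kdr*) from day 3 to day 4 GFP-negative, and no other count of tested calls changed. Same-numbered libraries correlated at -0.284 to 0.241 in their deviations, above 0.1 for every pair in 0 contrasts, and at -0.108 to 0.0227 between the day 4 gates and -0.0750 to 0.147 between the day 5 gates, so the numbers were not taken to pair the libraries, although the gates of a day came from the same sorted samples. A replicate block within each sorted day, chosen after seeing the data, left 3 members called between the day 4 gates (*Kdr*, *Flt1* and *Pecam1*).

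Over all genes, fitting only the groups compared lowered the calls from 72 to 1 higher and from 83 to 0 lower (day 1 against day 0), from 198 to 73 higher (day 2 against day 1), from 150 to 67 higher (day 3 against day 2), from 421 to 212 higher and 183 to 83 lower (day 4 GFP-negative against day 3), from 763 to 220 higher (day 4 gates), from 125 to 36 higher and 187 to 31 lower (day 5 against day 4 GFP-positive), and from 1241 to 263 higher and 1286 to 293 lower (day 3 against day 0). Of differences over 1.5, with no test, day 5 against day 4 GFP-negative had 527 higher and 291 lower, with 327 and 140 at a pseudocount of 5 and 286 and 180 at a filter of 50, and the day 5 gates had 1720 higher and 227 lower, with 1050 higher at a pseudocount of 5, 142 lower at a filter of 50, and 1074 higher and 426 lower with quantile normalization. A pseudocount of 5 gave 226 and the fit without day 0 replicate 1 gave 173 lower in place of 111 (day 2 against day 1), and 95 and 96 in place of 61 (day 3 against day 2).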

Other observations

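From day 3 to day 4 GFP-positive cells, 2 of 11 vascular ligands were called higher and 1 lower by limma, where 3.33% of all genes were called higher and 7.36% lower. The median of the list was -0.24 on the log2 scale, against -0.01 over all genes. *Efnb2*, which encodes the arterial ligand ephrin-B2 and is also active in neural tissue, rose from 1695 ± 166 to 21129 ± 1328 normalized counts (SD, n = 3, log2 difference 3.64, adjusted p = 1.84e-13, limma). *Vegfc*, a ligand of the VEGF receptors, rose from 32.1 ± 5.28 to 883 ± 124 (4.74, adjusted p = 2.22e-11, limma). *Apela*, a ligand of the apelin receptor, fell from 769 ± 238 to 32.4 ± 15.4 (-4.57, adjusted p = 1.40e-08, limma). In day 4 GFP-negative cells *Efnb2* and *Vegfc* also rose from day 3, by 1.65 and 3.25 on the log2 scale (adjusted p = 1.66e-07 and 4.56e-08, limma), and these 2 comparisons share the day 3 libraries.

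Over the same step to GFP-positive cells, 2 of 19 other endothelial transcription factors were called higher and 4 lower, and 3 of 14 other receptors higher and 1 lower (limma). Among all genes 3.33% were called higher and 7.36% lower in this step. *Nrp1*, a coreceptor for VEGF and semaphorins, rose from 39.9 ± 5.92 on day 3 to 717 ± 301 in GFP-negative and 223 ± 90.1 in GFP-positive cells (SD, n = 3, adjusted p = 2.34e-09 and 6.92e-07, limma). *Nr2f2*, a venous and lymphatic factor that is also active in the brain, rose from 12.4 ± 4.25 to 488 ± 125 and to 2516 ± 102 (adjusted p = 4.22e-09 and 1.71e-12, limma). *Eng*, a TGF-beta coreceptor, fell in GFP-positive cells from 555 ± 70.0 to 82.0 ± 10.8 (log2 difference -2.74, adjusted p = 2.90e-07, limma). *Klf2* fell there as well, from 1718 ± 221 to 72.1 ± 34.3 (log2 difference -4.64, adjusted p = 1.14e-11, limma). *Eng* and *Klf2* had their highest means on day 0, at 2203 and 7511 normalized counts. All 8 pluripotency markers were called lower over the same step to GFP-positive cells (limma), and their part in these falls was not tested.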
